A study of Mus musculus with 8 samples.

Results

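Transcripts of 10 genes for inflammatory cytokines and mediators were followed across 4T1 mammary tumors with and without CD95 in 2 kinds of host. The genes were chosen by name and found by their Ensembl identifiers, and all 10 were found among the 25006 identifiers of each library and passed the low-count filter, which kept 15310 genes. They were Il1a, Il1b and Il1rn of the interleukin-1 system, Tnf, the interleukin-6 family members Il6, Il11, Lif and Osm, and the enzyme genes Nos2 and Ptgs2. Each of 4 groups held 2 libraries, 1 per derivative of 4T1, a transplantable Balb/c mammary carcinoma line used for triple-negative disease. In NSG hosts, which have no mature T, B or NK cells but keep myeloid cells, the wild-type group held tumors of parental cells and of cells stably expressing vCas9, and the knockout group held tumors of the CRISPR/Cas9 CD95 (Fas) knockout clones 54 and 69. The same 4 lines made up the wild-type and knockout groups in Balb/c hosts, whose immune system is intact. Host strain and immune state changed together, so they cannot be told apart in any comparison of hosts. Tumors arose from fat pad injections, growth lasted at most 20 days, and whole tumor RNA was sequenced. Both knockout lines were single clones, the age and sex of the hosts were not stated, and neither was the number of tumors behind a library. Pairs of values below give the parental line before the vCas9 line and clone 54 before clone 69, so the spread within a group is a spread between lines.

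Interleukin-1 alpha and beta are the agonists of the interleukin-1 receptor, and the product of Il1rn occupies the same receptor without signaling. Together with tumor necrosis factor they switch on the transcription factor NF-kappaB, which in turn drives many inflammatory genes, among them Il6 and the genes of inducible nitric oxide synthase (Nos2) and cyclooxygenase-2 (Ptgs2), the enzyme of inducible prostaglandin synthesis. Interleukins 6 and 11, leukemia inhibitory factor (Lif) and oncostatin M (Osm) signal through the shared receptor chain gp130 and the transcription factor STAT3. In tumors such cytokines can come from the carcinoma cells, from fibroblasts, or from neutrophils and macrophages, and whole tumor RNA does not separate these sources.

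Total counts ranged from 8680070 to 19655945 per library, and 3 counts corresponded to 0.159 to 0.321 CPM (counts scaled to a common library total). Fas transcripts were read in every library, at 12.9 to 33.9 CPM in NSG and 27.1 to 51.6 CPM in Balb/c tumors, and the knockout groups are named by their labels. Epithelial markers of the carcinoma (9 genes, summed) lay at 766 to 4336 CPM with none at 0 in any library. The sum of 15 neutrophil markers ranged from 1165 to 10508 CPM and that of 15 macrophage and monocyte markers from 5753 to 22023 CPM. T cell markers (9 genes) summed to 4.71 to 10.2 CPM in NSG and 467 to 548 CPM in Balb/c tumors. The sum of 8 fibroblast markers was 17494 to 33561 CPM in NSG and 3982 to 12874 CPM in Balb/c tumors. Across 15310 genes the log2 difference between the libraries labelled clone 54 and clone 69 in NSG correlated negatively with that in Balb/c (r = -0.38, beside 0.08 for the parental and vCas9 lines). Whether the clone names were exchanged in 1 host was not tested, so clones are named as labelled and every comparison of a clone across hosts rests on those labels, while the groups do not. In bulk tumor RNA, fewer cells of a type and less RNA per cell cannot be told apart.

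4 of the 10 genes, namely Il6, Il11, Lif and Ptgs2, were lower in both knockout libraries than in both wild-type libraries of the same host, in NSG and again in Balb/c. Over all tested genes this pattern was met by 8.85%. For Il11 in Balb/c it rests on 20 counts (1.06 CPM) in the clone 54 library against 13 counts (1.10 CPM) in the parental library, a gap that was not detectable at this depth. The bases before the start sites of these 4 genes are shown, because they are the members with this pattern in both hosts, with motif matches in capitals. The sequences are the 250 bases upstream of the RefSeq start on build GRCm38.p6, written 5′ to 3′ on the strand of the gene, and of the 2 listed windows of Il11 the one inside the annotated gene is given, since the other held none of the motifs searched.
Il6 (chr5:30012864-30013113, plus strand): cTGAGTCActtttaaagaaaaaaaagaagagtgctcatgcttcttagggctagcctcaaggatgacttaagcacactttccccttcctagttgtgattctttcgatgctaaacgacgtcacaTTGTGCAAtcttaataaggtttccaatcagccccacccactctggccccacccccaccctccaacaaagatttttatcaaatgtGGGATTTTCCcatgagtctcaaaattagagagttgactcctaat
Il11 (chr7:4778142-4778391, minus strand): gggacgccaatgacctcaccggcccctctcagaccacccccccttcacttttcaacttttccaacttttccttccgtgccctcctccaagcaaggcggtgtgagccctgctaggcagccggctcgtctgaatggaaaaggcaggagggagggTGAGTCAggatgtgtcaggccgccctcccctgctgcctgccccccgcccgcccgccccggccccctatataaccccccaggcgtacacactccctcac
Lif (chr11:4257318-4257567, plus strand): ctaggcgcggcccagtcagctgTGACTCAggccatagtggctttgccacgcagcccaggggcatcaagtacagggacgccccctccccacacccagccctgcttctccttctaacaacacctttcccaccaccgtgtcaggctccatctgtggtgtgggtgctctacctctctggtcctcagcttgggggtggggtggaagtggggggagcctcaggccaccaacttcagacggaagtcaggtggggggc
Ptgs2 (chr1:150099781-150100030, plus strand): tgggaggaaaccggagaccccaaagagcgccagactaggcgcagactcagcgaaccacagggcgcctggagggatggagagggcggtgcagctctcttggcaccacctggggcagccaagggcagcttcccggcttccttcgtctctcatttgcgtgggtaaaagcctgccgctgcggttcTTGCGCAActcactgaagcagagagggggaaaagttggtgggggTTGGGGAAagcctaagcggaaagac

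The capitals mark matches on either strand to TGANTCA (AP-1), TTNNGNAA (C/EBP-like), the kappaB-like motif of NF-kappaB or TGACGTCA (CRE) and no matches overlap. TGANTCA began 249 bases before the start of Il6, 98 before that of Il11 and 228 before that of Lif, and did not occur in these letters in the Ptgs2 window. It was found in 3 of these 4 genes, and also in Il1a and Il1rn, which did not have the pattern in both hosts. Over the 8 members with a RefSeq window it was in 5 of their 11 windows, against 6.7% of all 32851 windows of this length. The kappaB-like motif occurred 44 bases before the start of Il6, in 2 of the 11 windows of members, the other being of Il1rn, and in 4.6% of all windows. TTNNGNAA occurred in Il6 and at 2 places in Ptgs2, in 7 of the 11 windows of members and in 36.8% of all windows, and TGACGTCA in no member and in 1.5% of windows. The 11 windows are not all separate sequences, since 2 windows of Il1rn overlap and share a match to TTNNGNAA. Osm and Nos2 had no window in the table. A match of letters describes the sequence and is not a binding site.

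Among the members, Il1b was the most abundant transcript per kilobase of exon in all 4 groups. In NSG wild-type tumors the mean was 1156 CPM per kb for Il1b, 464 for Ptgs2, 189 for Osm, 152 for Il1a, 106 for Il6, 105 for Il1rn, 73.2 for Lif, 46.0 for Tnf, 24.2 for Il11 and 18.8 for Nos2. Neighbours in this order did not overlap in their 2 libraries, except Il6 and Il1rn. In Balb/c wild-type tumors Il1a (385 CPM per kb) and Il1rn (352) came next, ahead of Ptgs2 (299) and Osm (236), Nos2 had moved up to 59.1, and Il11 was last at 1.11. The libraries of Il6 and Nos2 overlapped there. In NSG knockout tumors the ranges of the neighbours from Ptgs2 down to Il6 overlapped, in the order Ptgs2, Il1a, Osm, Il1rn, Tnf and Il6, and those below did not. In Balb/c knockout tumors the neighbours from Osm down to Tnf overlapped, in the order Osm, Il1a, Il1rn, Ptgs2 and Tnf. Il11 was last in both, at 1.74 CPM per kb in NSG and 0.464 in Balb/c.

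**Figure D1:**
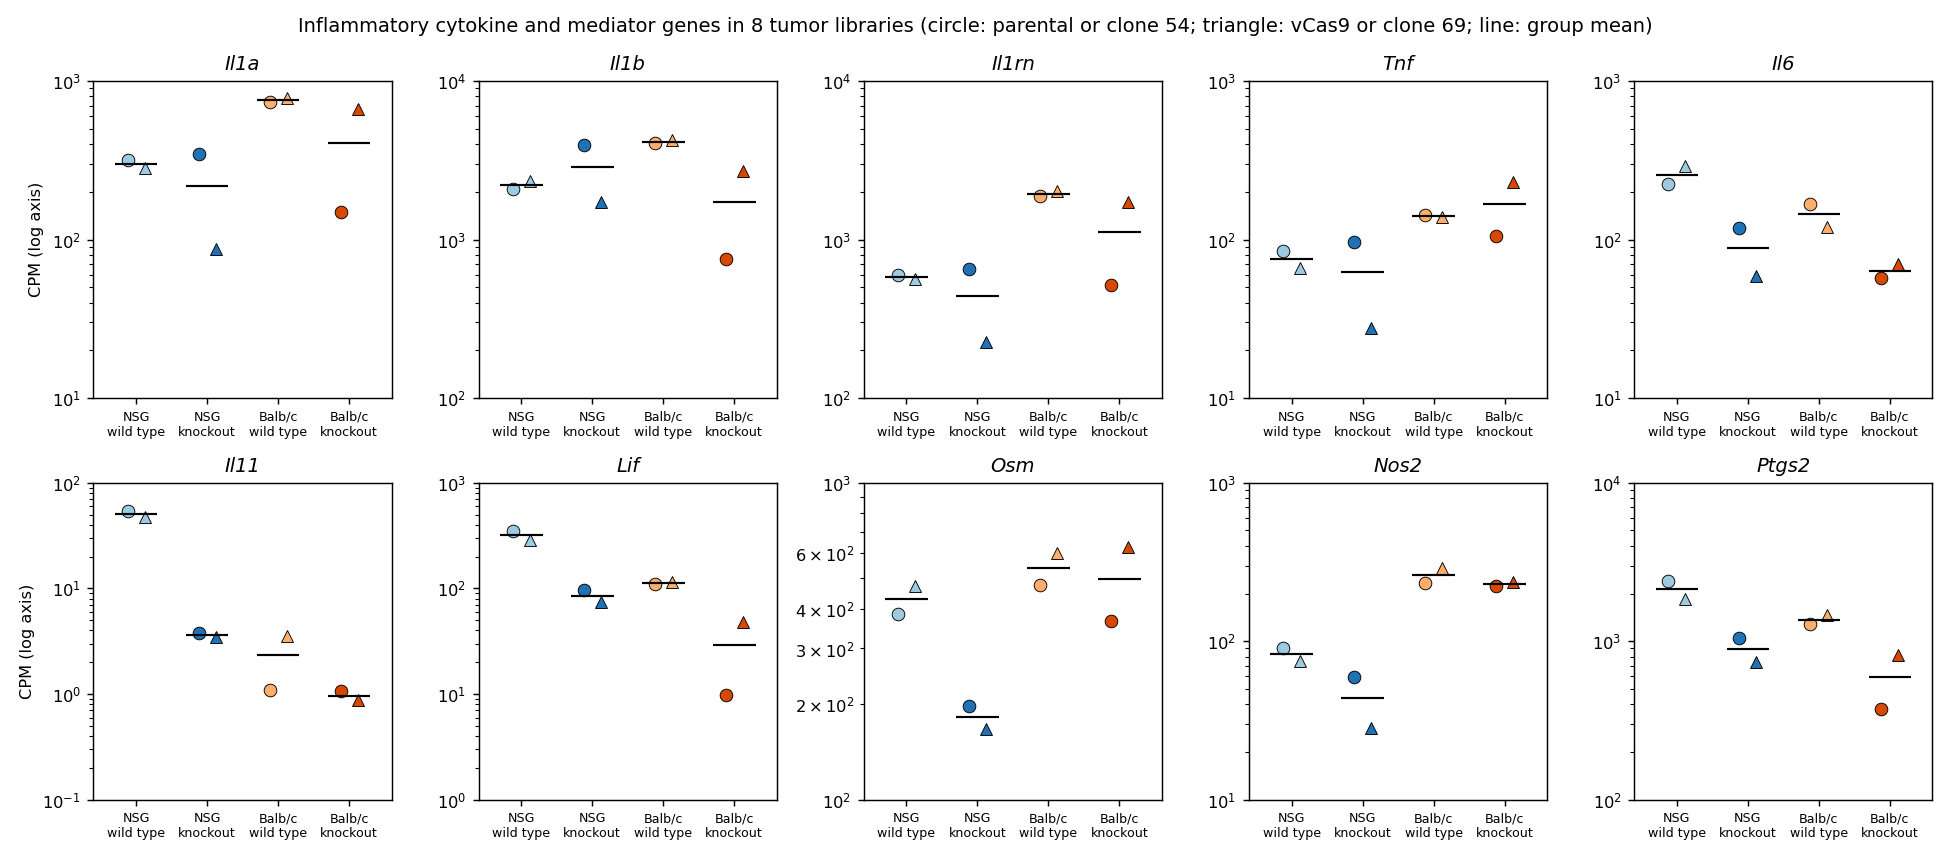
CPM of the 10 genes (log axis, a different range in each panel) in the 8 libraries, with circles for the parental line or clone 54, triangles for the vCas9 line or clone 69 and lines for group means. Il11 is near 50 CPM in the NSG wild-type libraries and below 4 CPM elsewhere, and for Il1a, Il1b, Il1rn and Tnf the clone 54 circle is above the clone 69 triangle in NSG and below it in Balb/c.

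The interleukin-1 agonists and their antagonist were higher in Balb/c than in NSG wild-type tumors in all libraries, without passing the test. Il1b (chromosome 2, 129364570 to 129371139 in GRCm38, minus strand) was at 2084 and 2324 CPM in NSG wild-type, 3973 and 1723 in NSG knockout, 4038 and 4231 in Balb/c wild-type and 752 and 2697 in Balb/c knockout tumors. The lowest of the 8 values was thus that of clone 54 in Balb/c, and the library labelled with the same clone gave in NSG a value close to the Balb/c wild-type tumors. Il1a, the neighbouring gene (129299610 to 129309972), was at 316 and 284 CPM in NSG wild type, 346 and 87.6 in NSG knockout, 738 and 782 in Balb/c wild type and 149 and 669 in Balb/c knockout. Il1rn (chromosome 2, 24336853 to 24351494) was at 597 and 565, 652 and 225, 1871 and 2031, and 517 and 1717 CPM in the same order of groups. For all 3 genes the wild-type lines lay close together within a host and the knockout clones lay far apart, with the library labelled clone 54 the higher of the pair in NSG and the lower in Balb/c.

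The Balb/c against NSG log2 fold change in wild-type tumors was 1.75 for Il1rn (SE 0.62, edgeR adjusted p = 0.0627), 1.34 for Il1a (SE 0.74, adjusted p = 0.191) and 0.91 for Il1b (SE 0.59, adjusted p = 0.262). In a fit of the 4 wild-type libraries alone, where the spread of the clones does not enter, each of these passed, with edgeR adjusted p-values of 0.000627 for Il1a, 0.00278 for Il1b and 4e-04 for Il1rn. In knockout tumors the corresponding values were 1.35 for Il1rn, 0.92 for Il1a and -0.72 for Il1b, with adjusted p-values of 0.129, 0.376 and 0.384 and overlapping libraries. A block with clones exchanged between hosts, counted below, was tried after the clone differences were seen to reverse. It called more members in knockout tumors, which is no separate support. Its calls cannot all lie outside these 3 genes. Leaving out 1 library at a time, the value of Il1b in knockout tumors ranged from -1.92, without the clone 69 library of Balb/c, to -0.0022. That of Il1rn ranged from 0.24 to 2.31. For Il1rn in wild-type tumors the adjusted p was 0.0173 to 0.0439 without any 1 of the 4 knockout libraries. The knockout effect in Balb/c was -1.26 for Il1b (SE 0.60, adjusted p = 0.19), -0.89 for Il1a and -0.80 for Il1rn, and in these 3 genes the groups did not overlap. DESeq2 called Il1b in Balb/c (adjusted p = 0.0497). Leaving out 1 library at a time gave -2.45 to -0.72 for Il1b and -1.91 to -0.29 for Il1rn in Balb/c. The values furthest from 0 came without the clone 69 library of Balb/c, which left clone 54 as the only knockout library there. In NSG the knockout effect was 0.37 for Il1b, -0.47 for Il1a and -0.41 for Il1rn, with adjusted p-values of 0.785 to 0.80 and overlapping groups. Il1b and Il1a overlap the antisense genes Il1bos and Gm14023, and because the strand setting of the counting was not stated, part of their reads cannot be assigned.

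Whereas the levels varied between clones, the proportion of antagonist to agonists within a library did not cross between groups. Per kilobase, the ratio of Il1rn to the sum of Il1a and Il1b was 0.0861 and 0.0748 in NSG wild-type, 0.0522 and 0.0428 in NSG knockout, 0.136 and 0.140 in Balb/c wild-type and 0.199 and 0.177 in Balb/c knockout tumors. Each group occupied its own range, lowest in NSG knockout and highest in Balb/c knockout tumors. The share of Il1a relative to Il1b followed the same order, at 0.147 and 0.118, 0.0840 and 0.0491, 0.177 and 0.178, and 0.192 and 0.240. Ratios within a library do not depend on how libraries are scaled. An exact test of 2 against 2 libraries cannot pass, and none was made. The ratios were not tested in a fit over all groups either.

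**Figure D2:**
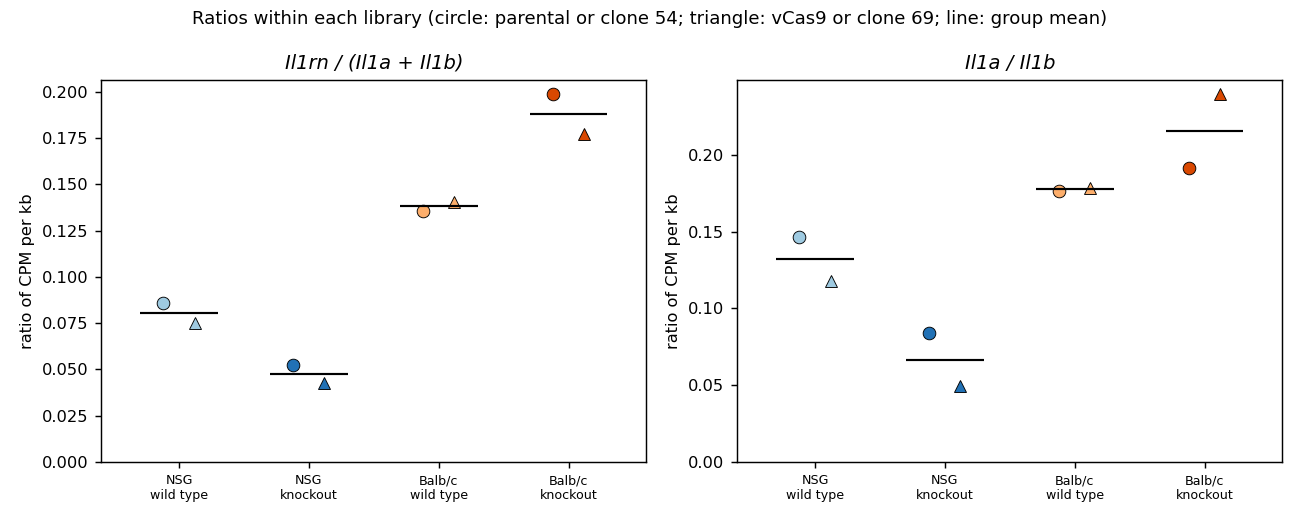
Ratio of CPM per kb within each library for Il1rn over the sum of Il1a and Il1b (left) and Il1a over Il1b (right), with linear axes that start at 0, circles for the parental line or clone 54, triangles for the vCas9 line or clone 69 and lines for group means. In each panel both knockout libraries lie below the wild type in NSG and above it in Balb/c.

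Neutrophil and macrophage markers varied across the same libraries as Il1b. The summed neutrophil list, which contains the interleukin-1 decoy receptor Il1r2, was at 2318 and 3220 CPM in NSG wild-type, 5576 and 3648 in NSG knockout, 10508 and 8901 in Balb/c wild-type and 1165 and 4223 in Balb/c knockout tumors. The macrophage and monocyte list was at 8131 and 9209, 6051 and 5873, 5753 and 6086, and 22023 and 10313 CPM. The clone 54 tumor in Balb/c thus had the lowest Il1b, the lowest neutrophil sum, with 1 of the 15 neutrophil genes at 0, and the highest macrophage sum. Their part in the differences of Il1b was not tested. By the fit, 7 of 15 neutrophil genes were higher in Balb/c than in NSG wild-type tumors, 0 were lower, and the list's median log2 fold change was 2.11 against -0.08 over all genes. In knockout tumors 1 was higher and 3 were lower, with a median of -0.75 against 0.02 over all genes. Of all genes, 15.3% were higher and 16.2% lower in wild-type tumors, and 15.7% higher and 15.4% lower in knockout tumors.

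**Figure D3:**
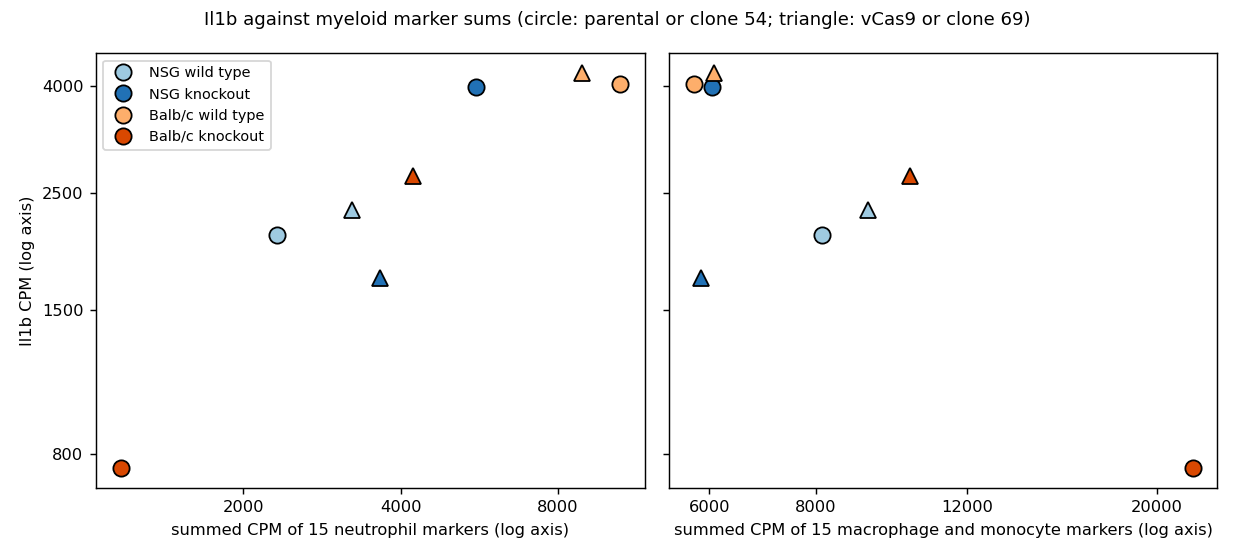
Il1b CPM against the summed CPM of 15 neutrophil markers (left) and of 15 macrophage and monocyte markers (right) in 8 libraries on log axes, colored by group, with circles for the parental line or clone 54 and triangles for the vCas9 line or clone 69. The Balb/c clone 54 library, at 752 CPM of Il1b, has the lowest neutrophil and the highest macrophage sum.

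Tnf encodes tumor necrosis factor (chromosome 17, 35199381 to 35202007, minus strand). It did not pass in any comparison in edgeR's fit of 4 group means to all 8 libraries with the low-count filter. It was at 85.0 and 65.8 CPM in NSG wild-type, 96.3 and 27.7 in NSG knockout, 144 and 138 in Balb/c wild-type and 105 and 230 in Balb/c knockout tumors. Both Balb/c groups lay above the NSG group of the same genotype. The log2 fold change between hosts was 0.90 (SE 0.55, edgeR adjusted p = 0.23) in wild-type and 1.43 (SE 0.55, adjusted p = 0.0848) in knockout tumors. In knockout tumors it was 2.59 (adjusted p = 0.0137) without the clone 54 library of NSG and 1.87 (adjusted p = 0.0449) without that of Balb/c, and 0.79 and 0.76 without the clone 69 library of NSG or of Balb/c. It also passed there with DESeq2 (adjusted p = 0.0194) and with edgeR on every gene with a count (0.0211). The block with clones exchanged between hosts gave 0.00218, but that pairing was chosen after the clone differences were seen to reverse. In wild-type tumors Tnf passed with the 4 libraries compared alone (edgeR adjusted p = 0.00405). For the knockout effect the libraries overlapped in both hosts, and the 95% interval of the log2 fold change was -1.55 to 0.98 in NSG and -0.999 to 1.498 in Balb/c.

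Of the interleukin-6 family, Il11 was the member with the widest range as a ratio of highest to lowest CPM. Il11, a gp130 cytokine made by stromal and carcinoma cells (chromosome 7, 4772373 to 4782859, minus strand), had 772 and 569 counts in NSG wild-type, 35 and 35 in NSG knockout, 13 and 51 in Balb/c wild-type and 20 and 12 in Balb/c knockout tumors. These correspond to 53.5 and 47.1, 3.75 and 3.48, 1.10 and 3.53, and 1.06 and 0.875 CPM. It was high in the 2 NSG wild-type libraries, and the other 6 lay at 0.875 to 3.75 CPM. Il11 fell in Balb/c relative to NSG by 4.41 on the log2 scale in wild-type tumors, a 21.2-fold difference (SE 0.45, edgeR adjusted p = 0.00121). The log2 fold change was -3.83 without the parental and -5.43 without the vCas9 library of Balb/c. In knockout tumors it fell by 1.88 (SE 0.49, adjusted p = 0.0223). That call was lost with the cell line as a block (adjusted p = 0.059) and, at 0.0551 to 0.0752, without either NSG knockout library or either Balb/c knockout library. The knockout log2 fold change in NSG was -3.80 (SE 0.44, adjusted p = 0.08), or 50.3 ± 4.48 against 3.61 ± 0.187 CPM (SD, n = 2 each). It passed with edgeR on every gene with a count (adjusted p = 0.000436), with the 4 NSG libraries alone (0.0241) and without the first or second Balb/c wild-type library (0.0145 and 0.0157), and with DESeq2 (8.79e-14). The adjusted p was 0.0516 to 0.656 without any 1 of the other 6 libraries. In Balb/c it was -1.27 (SE 0.49, adjusted p = 0.128) at 12 to 51 counts per library, and it was -0.26 (adjusted p = 0.782) without the vCas9 library of Balb/c.

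Il6 and Lif had the same order of groups. Il6 (chromosome 5, 30013114 to 30019981), the prototype of the family and a driver of the acute phase response, was at 224 and 290 CPM in NSG wild-type, 118 and 58.8 in NSG knockout, 168 and 120 in Balb/c wild-type and 57.0 and 69.9 in Balb/c knockout tumors. Lif (chromosome 11, 4257557 to 4272514), which sustains stem cells and acts on the Lif receptor with gp130, was at 350 and 287, 97.1 and 73.6, 109 and 116, and 9.84 and 48.2 CPM. In each host both knockout libraries were lower than both wild-type libraries for both genes. The knockout log2 fold change of Il6 was -1.54 (SE 0.34, edgeR adjusted p = 0.194) in NSG and -1.18 (SE 0.34, adjusted p = 0.0741) in Balb/c. For Lif it was -1.90 (SE 0.59, adjusted p = 0.261) in NSG and -1.96 (SE 0.59, adjusted p = 0.0817) in Balb/c. Leaving out 1 library at a time, the Balb/c value of Lif ranged from -3.51, without the clone 69 library of Balb/c, to -1.325. DESeq2 called both genes in both hosts, at adjusted p-values of 0.00211 and 0.00629 for Il6 and 0.0192 and 0.00268 for Lif. Between hosts Lif differed by -1.50 in wild-type and -1.56 in knockout tumors and Il6 by -0.84 and -0.48, with adjusted p-values of 0.0786 to 0.309. In knockout tumors Lif passed at -3.11 (adjusted p = 0.000542) without the clone 69 library and at -0.85 (adjusted p = 0.0315) without the clone 54 library of Balb/c, and in wild-type tumors without either of them (adjusted p = 0.00151 and 0.00192). Il6 passed in wild-type tumors without either NSG knockout library (adjusted p = 0.0371 and 0.0378), and in knockout tumors its value was 0.11 without the clone 54 library of NSG.

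Osm, the family member typical of activated myeloid cells (chromosome 11, 4236420 to 4241026, next to Lif), behaved otherwise. It was at 385 and 473 CPM in NSG wild-type, 198 and 167 in NSG knockout, 475 and 599 in Balb/c wild-type and 367 and 626 in Balb/c knockout tumors. The NSG knockout tumors were lowest and did not overlap any other group. In knockout tumors Osm rose in Balb/c relative to NSG by 1.44 on the log2 scale, a 2.72-fold difference (SE 0.29, edgeR adjusted p = 0.00863), a call lost without the clone 69 library of NSG (adjusted p = 0.0605). In wild-type tumors the difference was 0.32 (SE 0.28, adjusted p = 0.40). The knockout effect was -1.23 (SE 0.29, adjusted p = 0.202, and 0.00391 with DESeq2) in NSG and -0.11 (95% interval -0.77 to 0.54, adjusted p = 0.807) in Balb/c, and the difference between these effects, 1.12 (SE 0.40), had an adjusted p of 0.167.

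Nos2, the inducible nitric oxide synthase gene (chromosome 11, 78920787 to 78960254), rose in Balb/c in both genotypes. Its level was 91.1 and 74.8 CPM in NSG wild-type, 59.7 and 28.4 in NSG knockout, 231 and 290 in Balb/c wild-type and 222 and 237 in Balb/c knockout tumors. All 4 Balb/c libraries exceeded all 4 NSG libraries. The fitted difference between hosts on the log2 scale was 1.65 (SE 0.32, edgeR adjusted p = 0.0101) in wild-type and 2.38 (SE 0.33, adjusted p = 0.00214) in knockout tumors, or 3.14-fold and 5.21-fold. In wild-type tumors the call was lost, at adjusted p-values of 0.0651, 0.0794 and 0.0537, without the first or second NSG wild-type library or the second Balb/c wild-type library. In knockout tumors it passed in every alternative run. The knockout effect was -0.91 (SE 0.32, adjusted p = 0.298) in NSG, where the groups did not overlap, and -0.18 (95% interval -0.91 to 0.54, adjusted p = 0.714) in Balb/c, where they did.

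Ptgs2 (chromosome 1, 150100031 to 150108227) was at 2401 and 1852 CPM in NSG wild-type, 1044 and 743 in NSG knockout, 1285 and 1457 in Balb/c wild-type and 375 and 818 in Balb/c knockout tumors. In both hosts every knockout library was lower than every wild-type library. The knockout effect was -1.25 on the log2 scale (SE 0.38, edgeR adjusted p = 0.259) in NSG and -1.20 (SE 0.38, adjusted p = 0.0904) in Balb/c, and neither passed. Leaving out 1 library at a time, the value in Balb/c ranged from -1.86, without the clone 69 library of Balb/c, to -0.85. DESeq2 called Ptgs2 in both hosts (adjusted p = 0.0275 and 0.00622). The difference between the fitted effects was 0.05, with a 95% interval of -1.19 to 1.29. Between hosts Ptgs2 differed by -0.63 in wild-type and -0.58 in knockout tumors, with adjusted p-values of 0.226 and 0.277. Leaving out 1 library at a time, the value in knockout tumors ranged from -1.25, without the clone 69 library of Balb/c, to -0.15.

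Counted over the list, 2 of the 10 members passed between hosts in wild-type tumors, Nos2 higher and Il11 lower in Balb/c, where 31.5% of all genes passed, 15.3% higher and 16.2% lower. In knockout tumors 3 passed, Nos2 and Osm higher and Il11 lower, where 31.1% of all genes passed, 15.7% higher and 15.4% lower. Groups did not overlap for 6 members higher (35.4% of all genes) and 4 lower (41.0%) in Balb/c in wild-type tumors, and for 3 higher (32.4%) and 2 lower (31.9%) in knockout tumors. In this fit the shares that passed are near or below the background, and this turned with the fit. The 4 wild-type libraries alone called 9 members and 46.7% of genes. DESeq2 called 4 members and 32.3% of genes in wild-type and 6 members and 32.4% in knockout tumors. A block with clones exchanged between hosts, tried after the data were seen, called 8 members and 35.5% in knockout tumors. That pairing was chosen because the clone differences were reversed between hosts. The block takes this reversed difference out of the spread, so its higher count is no separate support. Higher genes made up 48.6% of the calls in wild-type and 50.5% in knockout tumors, and 36.5% and 37.3% when libraries were scaled by total counts, which moved the median of all genes from -0.08 to -0.24 and from 0.02 to -0.17. The directions of the members between hosts were unchanged by it. Marker lists also differed between hosts. Of 15 macrophage and monocyte markers, 3 were higher and 3 lower in Balb/c in wild-type tumors (median -0.38), and 12 were higher and 0 lower in knockout tumors (median 1.63). Of 8 fibroblast markers, 0 were higher and 1 lower in wild-type (median -0.76), and 0 were higher and 7 lower in knockout tumors (median -1.62). Of 8 proliferation genes, 7 were lower and 0 higher in each genotype (medians -1.52 and -1.36). Of 7 mast cell markers, 1 was higher and 5 lower in wild-type (median -2.13), and 0 higher and 4 lower in knockout tumors (-1.43). Dendritic cell markers were higher for 5 and 6 of 7 and lower for 0 (1.49 and 2.60). T cell markers were higher for 9 of 9 in each genotype (6.2 and 7.2). B cell markers were higher for 6 and 3 of 6 and lower for 0 (6.2 and 3.2). NK cell markers were higher for 6 and 5 of 7 and lower for 1 (5.7 and 6.9). The part of these marker lists in the changes of Nos2, Osm, Il11 and the pathway lists between hosts was not tested. The 2 host comparisons share no library, but each shares its groups with the knockout comparisons.

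For the knockout effect, 0 of the 10 members passed edgeR's test in either host, where 0.0131% of genes passed in NSG and 0.176% in Balb/c. At an unadjusted p under 0.05 there were 6 members in NSG, all lower (7.25% of all genes), and 4 in Balb/c, all lower (14.3% of all genes), and DESeq2 called 5 in NSG (2.41% of genes) and 4 in Balb/c (16.0% of genes). In each host 9 of 10 log2 fold changes were negative, with medians of -1.07 in NSG and -1.04 in Balb/c, beside 0.01 and 0.06 over all genes tested. Marker lists of cell types differed over the same comparisons, with 0 genes called in any of them. In NSG the log2 fold changes were positive for 9 of 9 carcinoma epithelium markers (median 1.30), 8 of 8 fibroblast markers (0.63) and 13 of 15 neutrophil markers (0.58), and negative for 12 of 15 macrophage and monocyte markers (-0.55). There 6 of 7 mast cell markers were also positive (0.72) and 6 of 7 dendritic cell markers negative (-0.84). In Balb/c the log2 fold changes were negative for 14 of 15 neutrophil markers (median -1.82), 5 of 6 B cell markers (-3.11) and 7 of 8 fibroblast markers (-0.42). They were positive for 14 of 15 macrophage and monocyte markers (1.36), 7 of 7 endothelial markers (1.46), 6 of 7 mast cell markers (1.03) and 8 of 9 epithelial markers (0.62). Their part in the values of the members was not tested. Knockout libraries were lower without overlap for 6 members in NSG (25.8% of all genes) and 7 in Balb/c (29.3% of all genes), and higher without overlap for 0 in either (26.7% and 32.9% of all genes). The 4 genes that met this in both hosts had log2 fold changes of -1.36 (Il6), -2.73 (Il11), -1.93 (Lif) and -1.23 (Ptgs2) in an additive fit over both hosts, made after this had been seen. Because this pattern chose them, these values are a description without a test. That edgeR fit called 0 genes, with 2645 at an unadjusted p under 0.05 and a smallest adjusted p of 0.164.

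**Figure D4:**
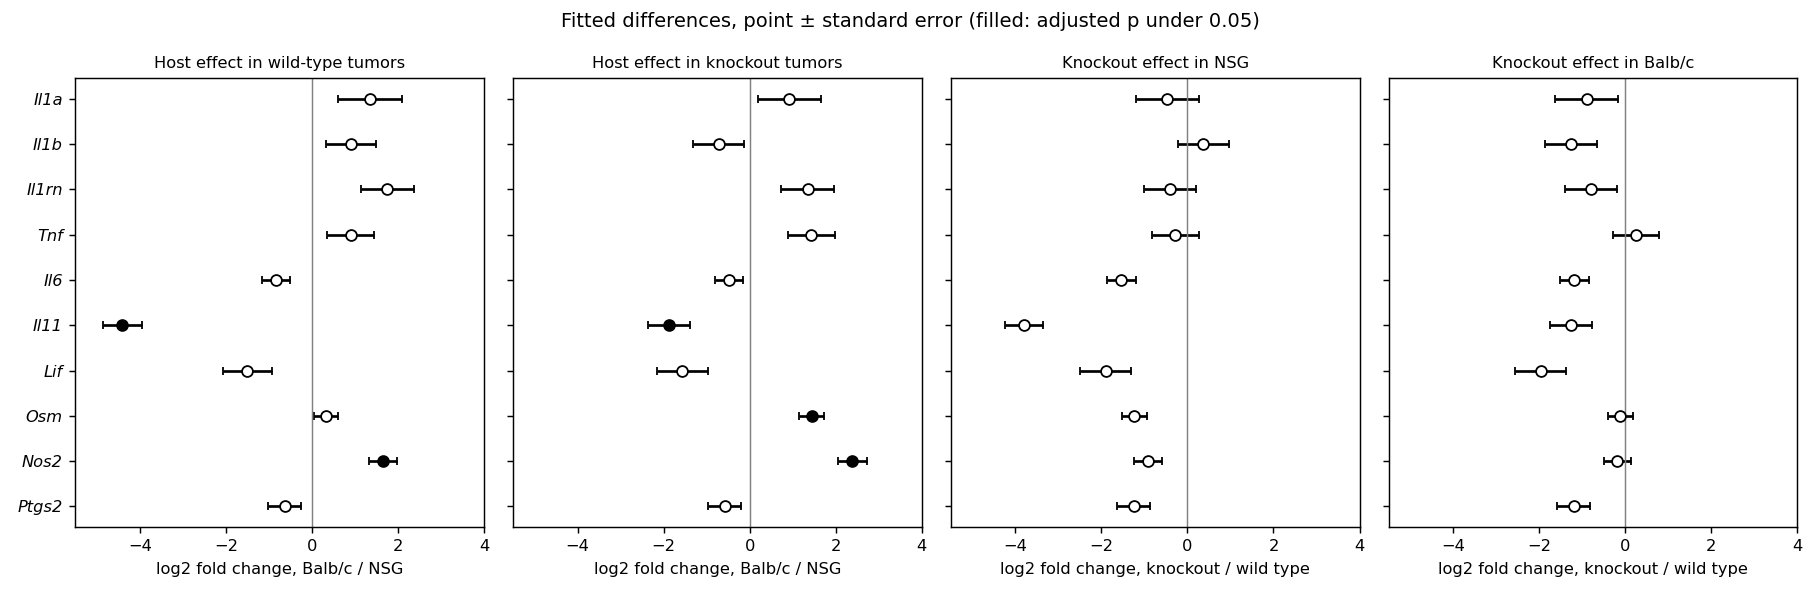
Log2 fold change of the 10 genes, points with standard errors from the edgeR fit of 8 libraries, in the 4 comparisons, with filled points where the adjusted p was under 0.05. Filled points are Il11 and Nos2 in wild-type tumors and Il11, Osm and Nos2 in knockout tumors between hosts, and in both knockout panels 9 of 10 points lie left of 0.

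The difference of the knockout effect between hosts passed for 0 members and 0.00% of all genes by edgeR. The largest was that of Il11, 2.53 (SE 0.65, edgeR adjusted p = 0.107), followed by Il1b at -1.63 (SE 0.84, adjusted p = 0.284). Il11 and Osm had an unadjusted p under 0.05 in the positive direction, as did 12.4% of all genes, and DESeq2 called 1 member, Il11, and 7.05% of genes. Leaving out 1 library at a time gave -2.82 to -0.90 for Il1b and -1.60 to 0.56 for Lif. The lower ends came without the clone 69 library of Balb/c, in a fit that assumed clone 54 to vary like the other groups.

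For 9 of 10 members the order of the 2 knockout libraries, as labelled, was reversed between hosts, as it was for 60.4% of all 15310 genes. Between those labelled clone 54 and clone 69, 10 of 10 members were higher in clone 54 in NSG, and 9 of 10 were lower in clone 54 in Balb/c, Il11 being the exception. Clone 54 was both higher in NSG and lower in Balb/c for these 9 members and for 29.5% of all 15310 genes. For Il1a the log2 difference of clone 54 from clone 69 was 1.97 in NSG and -2.16 in Balb/c, for Il1b 1.21 and -1.84, for Il1rn 1.54 and -1.73, for Tnf 1.78 and -1.13 and for Lif 0.40 and -2.24. Between the parental and vCas9 lines no member differed by more than 0.38 in NSG, and in Balb/c none but Il11, at 1.33, differed by more than 0.48. In Balb/c the parental and vCas9 lines differed by more than the clones for Il6, Il11 and Nos2, and in NSG for Il11 and Osm.

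Receptors for the cytokines were expressed in all groups. The counts per pathway list in this and the following comparisons of hosts stand beside 15.3% of all genes higher and 16.2% lower in wild-type, and 15.7% higher and 15.4% lower in knockout tumors. Per kilobase, the decoy Il1r2 exceeded the signaling receptor Il1r1 by 5.20 to 34.6 times in the 8 libraries, with the smallest ratio in the Balb/c clone 54 tumor. Il1r1 was at 115 and 118 CPM in NSG wild-type, 128 and 137 in NSG knockout, 73.3 and 62.4 in Balb/c wild-type and 64.9 and 34.1 in Balb/c knockout tumors, and it fell in Balb/c by 1.42 on the log2 scale in knockout tumors (SE 0.28, edgeR adjusted p = 0.0079). The interleukin-33 receptor Il1rl1 rose by 1.96 (SE 0.26, adjusted p = 0.00172) in knockout tumors. The accessory chain Il1rap rose in Balb/c wild-type tumors by 1.32 (SE 0.37, adjusted p = 0.031). Of the 15 receptors, decoys and adaptors for interleukin-1 and tumor necrosis factor, 7 were higher and 0 lower in Balb/c in wild-type tumors, with a median of 0.82, and 3 were higher and 1 lower in knockout tumors. Ripk1, a kinase downstream of the tumor necrosis factor receptor, rose by 0.98 and 1.09 (adjusted p = 0.00535 and 0.00231), and the adaptor kinase gene Irak2 by 1.48 (adjusted p = 0.0331) in wild-type tumors. The receptor Tnfrsf1a rose by 0.82 (SE 0.18, adjusted p = 0.0145) in wild-type tumors, whereas Tnfrsf1b, at 0.92 (SE 0.35), had an adjusted p of 0.08.

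**Figure D5:**
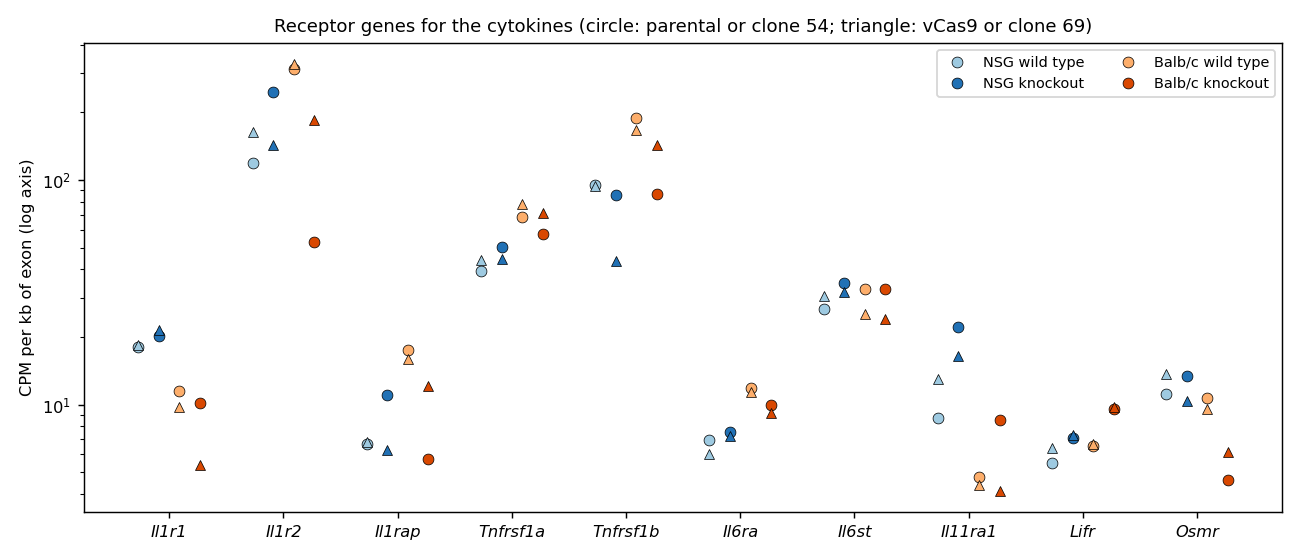
CPM per kb of exon (log axis) of 10 receptor genes in the 8 libraries, colored by group, with circles for the parental line or clone 54 and triangles for the vCas9 line or clone 69. Il1r2 ranges from the level of the Balb/c clone 54 library to the Balb/c wild type, and Il11ra1 and Il1r1 are lower in Balb/c than in NSG.

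Of the 14 gp130 receptor and STAT3 genes, 8 were higher and 1 lower in Balb/c in wild-type tumors, and 4 were higher and 2 lower in knockout tumors. The shared chain Il6st showed differences between hosts of 0.02 (SE 0.23) and -0.23 (SE 0.23) on the log2 scale, with adjusted p-values of 0.943 and 0.465. The Lif receptor gene Lifr differed by 0.15 and 0.42, with adjusted p-values of 0.435 and 0.0607. The Il11 receptor Il11ra1 fell in Balb/c in both genotypes, by 1.25 (SE 0.35, edgeR adjusted p = 0.0317) and by 1.60 (SE 0.35, adjusted p = 0.0117), as did its ligand. Il6ra rose by 0.84 (SE 0.15, adjusted p = 0.00733) in wild-type tumors, and the Osm receptor Osmr fell by 1.14 (SE 0.22, adjusted p = 0.00678) in knockout tumors, with -0.30 (adjusted p = 0.30) in wild-type tumors. The feedback inhibitors of cytokine signaling Cish and Socs1 rose by 2.37 and 2.22, and by 1.40 and 2.69, with adjusted p-values of 0.000792 to 0.0186. The kinase gene Pim1, a target of STAT signaling, rose by 1.32 (SE 0.32, adjusted p = 0.02) in wild-type tumors.

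Of the 14 NF-kappaB subunits and feedback genes, 5 were higher in Balb/c in wild-type and 9 in knockout tumors, and 0 were lower. Examples were the inhibitor Tnfaip3 (1.39 and 1.47 on the log2 scale) and the messenger-destabilizing factor Zfp36 (1.43 and 1.52), with edgeR adjusted p-values of 0.00797 to 0.02. Birc3, an inhibitor of apoptosis, rose by 1.44 (adjusted p = 0.0186) in wild-type and the subunit gene Rel by 1.41 (adjusted p = 0.0109) in knockout tumors. Of the 11 inflammasome and release genes, 5 were higher in wild-type and 7 in knockout tumors and 0 were lower. Casp1, which cleaves pro-interleukin-1 beta, rose by 0.80 (SE 0.24, adjusted p = 0.0388) and 1.37 (SE 0.24, adjusted p = 0.00514). Il18bp, which encodes a soluble inhibitor of interleukin-18, rose by 2.04 and 2.31 (adjusted p = 0.00178 and 0.000653). Casp4 and the DNA sensor Aim2 rose by 1.82 and 1.28 in wild-type tumors, and the pore-forming Gsdmd by 1.23 in knockout tumors, with adjusted p-values of 0.00227 to 0.00557. The inflammasome sensor Nlrp3, at 0.79 and 0.15, had adjusted p-values of 0.285 and 0.863. Adam17, the sheddase of tumor necrosis factor, rose by 0.87 (SE 0.18, adjusted p = 0.0104) in knockout tumors.

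Of 14 tested prostaglandin genes, 1 was higher and 3 lower in Balb/c in wild-type, and 3 were higher and 5 lower in knockout tumors, so the wild-type counts lie near the shares over all genes. The prostaglandin E2 receptor Ptger4 rose by 1.11 (SE 0.23, edgeR adjusted p = 0.0121) and 1.33 (SE 0.23, adjusted p = 0.00495). Ptger3, another prostaglandin E2 receptor, fell by 2.34 (edgeR adjusted p = 0.0419) and 2.68 (adjusted p = 0.0256). Its counts were 12 and 21 in the Balb/c wild-type and 39 and 3 in the Balb/c knockout libraries. The prostaglandin transporter Slco2a1 fell by 2.90 (SE 0.62, adjusted p = 0.0106) in knockout tumors. Ptges, the synthase that acts after cyclooxygenase-2, fell by 1.09 (SE 0.27, adjusted p = 0.0196) in knockout tumors. The prostaglandin-degrading dehydrogenase Hpgd fell by 2.51 (SE 0.59, adjusted p = 0.0152) in knockout tumors at 2.55 to 27.1 CPM. Of 10 tested genes of arginine and nitric oxide metabolism, 2 were higher and 2 lower in wild-type, and 4 were higher and 2 lower in knockout tumors. The arginine transporter Slc7a2 rose by 3.78 (SE 0.63, adjusted p = 0.00389) in knockout tumors, and Gch1, which supplies the cofactor of nitric oxide synthase, rose by 1.58 and 0.97 (adjusted p = 0.00718 and 0.0325).

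Of the 4 tested other interleukin-6 family ligands, 1 was higher in Balb/c in wild-type tumors, and 1 was higher and 1 lower in knockout tumors. These were Ebi3 (2.20, edgeR adjusted p = 0.0174) in wild-type and Il27 (2.32, adjusted p = 0.038) and Ctf1 (-1.83, adjusted p = 0.0345) in knockout tumors. Counts were low, at 5 and 5 for Il27 in the NSG knockout and 8 and 12 for Ctf1 in the Balb/c knockout libraries. Of 16 tested other inflammatory cytokines, 6 were higher and 2 lower in wild-type tumors, and 4 were higher and 3 lower in knockout tumors. The 2 that were lower in wild-type tumors, named after their values were seen, were Csf3 (-2.16, edgeR adjusted p = 0.016) and Mif (-1.15, adjusted p = 0.00544). Ltb and Il24 rose by 3.81 and 3.44 in wild-type tumors, while Il12b rose by 4.08 and Il23a fell by 3.33 in knockout tumors, with edgeR adjusted p-values of 0.00197 to 0.0164. Il12b had 1 and 4 counts in the NSG knockout libraries, near the floor of 3 counts, so the size of its rise is uncertain. Ifng, the product of T and NK cells, had 0 counts in all 4 NSG libraries and, in Balb/c, levels of 3.31 and 6.31 CPM in wild-type and 17.5 and 12.3 CPM in knockout tumors. For the knockout effect, 0 genes of any of these pathway lists passed in either host.

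Genes with the most similar profile over the 8 libraries were named for each member from 11439 others with a mean of at least 5 CPM, by Pearson correlation of log2 CPM. Since all 8 points share the host split and the library scaling, these values are descriptions. Il1b was closest to Il1r2 (r = 0.978), Trem1 (0.977), a receptor of neutrophils and monocytes, and Trim30b (0.974). Il1rn was closest to Rab20 (0.994), 9130230L23Rik (0.992) and the chemokine receptor Ccr1 (0.991), and Il1a to Mpp5 (0.987), Best1 (0.984) and Ndel1 (0.980). Ptgs2 was closest to Kdm1a (0.987), Fosl1 (0.986), an AP-1 subunit, and Tmem120a (0.975), and Lif to Klhl7 (0.977), Tmem120a (0.976) and Ptgs2 itself (0.972). Il6 was closest to Procr (0.949), Ier3 (0.943) and Errfi1 (0.935), and Il11 to Fam91a1 (0.973), Dtx3 (0.963) and Uck2 (0.960). Osm was closest to Hdac5 (0.985), Eepd1 (0.981) and Vegfa (0.980), Nos2 to Gbe1 (0.996), Ptpn2 (0.995) and Nampt (0.994), and Tnf to Pnrc1 (0.983), Rnf103 (0.973) and Bcl2a1a (0.973), whose reads can be shared with its paralogs. Among the 45 pairs of members the correlation ranged from -0.44 to 0.97 with a median of 0.38, so the 10 genes did not follow a single profile.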

How the data were processed

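RNA-seq libraries of 8 tumors or tumor pools were analysed from the deposited files, which hold raw counts per Ensembl gene. Per the submitters' processing notes, the authors' tools included cutadapt 1.13, STAR, HTSeq 0.6.1p1 and DESeq2, and the builds mm10 and hg19 are named without a role. Strand setting and annotation are not given in the sources used here. Symbols were found for 24942 identifiers, and positions and exon lengths came from GENCODE M21 (GRCm38, the assembly of mm10).

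Counts were fitted in R 4.3.3 with edgeR 4.0.16 (TMM, filterByExpr, quasi-likelihood F-tests, 4 group means, 4 residual degrees of freedom), with p-values adjusted by Benjamini and Hochberg over 15310 genes and a threshold of 0.05. CPM used TMM-scaled totals. Alternatives were RLE factors, total counts, no filter, DESeq2 1.42.0, fewer libraries and the cell line as a block. The procedure was tested on simulated data. P-values and 95% intervals measure only the spread between these libraries, which come from different lines. Floors of 3 counts cover counting error only.

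The members and gene lists were chosen with earlier results of these data known. Genes outside the members were named as up to 3 largest called changes per pathway list and comparison, as receptors, processing enzymes or direct partners of members, or as the 3 closest profiles. Some genes that this rule also selects are not reported here. Pairing of hosts follows the cell lines. Line differences correlated between hosts, across genes, with r of 0.08 for the parental and vCas9 lines and -0.38 for the clones.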

Additional observations from a re-analysis of the deposited data

Results flagged for a closer look

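In 2 of the 3 within-library ratios reported here both knockout libraries lay on one side of the wild type in NSG and on the opposite side in Balb/c. The difference between hosts was not tested in either of them. In the other, Il1r2 to Il1r1, the groups overlapped in both hosts. On the log2 scale the knockout effect on the ratio of Il1rn to the sum of Il1a and Il1b was -0.764 in NSG and 0.443 in Balb/c, a difference of 1.207. For Il1a relative to Il1b it was -1.033 and 0.272, a difference of 1.305.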

How the results depend on the processing

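Each group held 2 libraries, and among the members counts were lowest for Il11 outside NSG wild-type tumors, at 12 to 51 per library. Whether depth or the number of libraries limited the results more was not tested. Of 690 alternative values of single members, 591 kept direction and side of the threshold, 63 newly passed, 9 no longer passed and 27 changed sign. For the members, and for all genes in parentheses, the tests called 2 (4825) between hosts in wild-type and 3 (4757) in knockout tumors, 0 (2) for the knockout in NSG, 0 (27) in Balb/c and 0 (0) for the host difference. In the same order DESeq2 called 4 (4940), 6 (4964), 5 (340), 4 (2208) and 1 (974), and a fit of every gene with a count called 4 (4873), 5 (4954), 2 (133), 3 (1774) and 1 (674). RLE factors called 94 genes for the knockout in Balb/c. With only the 4 libraries compared, the first 4 comparisons called 9 (6838), 3 (2450), 1 (1) and 0 (0). The cell line as replicate block gave 2 (2073) and 2 (2878) between hosts and 0 (0) for the host difference. The block with clones exchanged between hosts was added after the clone differences were seen to reverse. It gave 8 (5436) in knockout tumors and 0 (307) for the host difference. Wild-type and knockout lines share a number and nothing else, so no block was fitted for the knockout within a host.

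Leaving out 1 library gave 1 to 4 members (858 to 6361 genes) and 1 to 5 (2461 to 4640) between hosts, 0 to 1 (0 to 1) for the knockout in NSG, 0 to 4 (0 to 3886) in Balb/c and 0 to 2 (0 to 2370) for the host difference. A group left with 1 library was assumed to vary like the others. Signs changed there for the host difference of Il1a (-1.87 to 0.89), Il1rn (-1.50 to 0.57), Il6 (-0.05067 to 0.955), Lif (-1.60 to 0.56), Ptgs2 (-0.61 to 0.39) and Tnf (-0.13 to 1.70). They also changed between hosts in knockout tumors for Il1a (-0.53 to 2.22) and Il6 (-0.90 to 0.11), and for the knockout in Balb/c for Osm (-0.54 to 0.12) and Tnf (-0.42 to 0.61). In NSG they changed for Il1a (-1.78 to 0.20), Il1b (-0.36 to 0.85), Il1rn (-1.37 to 0.16) and Tnf (-1.45 to 0.35). The host difference of Ptgs2, near 0, was -0.03485 with RLE, -0.02893 with every gene, -0.03483 with DESeq2, -0.04458 with the replicate block and -0.04446 with the crossed block. The cause of these changes was not tested.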
